A study of Mus musculus with 4 samples.

Results

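The genes described here mark the duct cell, the epithelial cell that lines the channels of the exocrine pancreas. They were chosen by name, with earlier results of these data known: Cftr, Prom1, Krt19, Krt7, Sox9, Spp1, Muc1, Car2 and Slc4a4. Of these 9 genes, 8 had a probeset, a group of probes read out as 1 value, that the platform annotation pairs with that gene alone, out of 22180 genes measured in this way, and each of the 8 had 1 such probeset. Spp1 had none there and was not analysed here. RNA came from isolated pancreatic islets, the clusters of hormone cells of the pancreas, kept in RPMI medium. Islets of C57BL/6 WT mice and of littermates with a GPR41 transgene (41 Tg in the labels, Tg here), 5 to 6 months old, were each measured on 2 Affymetrix Mouse Gene 2.0 ST arrays. GPR41 is a receptor for short-chain fatty acids encoded in the mouse by Ffar3. The question was how islet expression differs with the transgene. The labels give neither the promoter and line of the transgene, nor the sex of the mice, nor whether an array held islets of 1 mouse or of several, so the spread between arrays of a group may be in part technical.

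Duct cells secrete bicarbonate-rich fluid. Secretin raises cAMP in them, protein kinase A opens the chloride and bicarbonate channel encoded by Cftr at the apical membrane, the cotransporter encoded by Slc4a4 brings bicarbonate in at the basal side, and the carbonic anhydrase encoded by Car2 makes bicarbonate from carbon dioxide. Krt7 and Krt19 encode keratins of the epithelial cytoskeleton, Sox9 a transcription factor of duct and progenitor cells, Muc1 an apical mucin, and Prom1 (CD133) a membrane protein of apical protrusions and cilia. None of these genes is confined to ducts. GPR41 couples to the inhibitory G protein Gi, which lowers cAMP.

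Values are log2 expression after RMA, an array normalisation, so a difference of 1 is 2-fold. Array medians lay between 6.43 and 6.47. Ffar3 itself was 7.09 and 6.47 in WT and 11.02 and 10.98 in Tg. Hormone genes marked the tissue as islet, with Ins2 between 12.46 and 12.59, Gcg between 13.45 and 13.64 and Sst between 12.87 and 13.43. Acinar genes, which encode the digestive enzymes of the exocrine pancreas, were also bright. Ctrb1 lay between 13.56 and 13.89 and Cpa1 between 13.07 and 13.73, both above Ins2 in signal, which does not compare amounts of RNA between genes. The mean over 22 acinar genes was 10.04 on WT replicate 1 and 11.22 on WT replicate 2, and 10.82 and 10.42 on the Tg arrays, so the WT arrays stood farther apart from each other than from either Tg array. In such bulk RNA, fewer cells of a type and less RNA per cell cannot be told apart.

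Of the 8 duct genes, Cftr rose in Tg islets, Prom1 fell, and the other 6 did not pass the test. The test was limma's moderated linear model over all genes with Benjamini-Hochberg adjustment, and a call is an adjusted p under 0.05. Over all genes, 0.897% were called, 0.672% as higher and 0.225% as lower in Tg. The median difference, Tg minus WT, was -0.02 over the 8 genes and -0.02 over all genes. In 2 of the 8, Cftr and Prom1, the WT and Tg arrays did not overlap, against 42.3% of all genes.

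**Figure D1:**
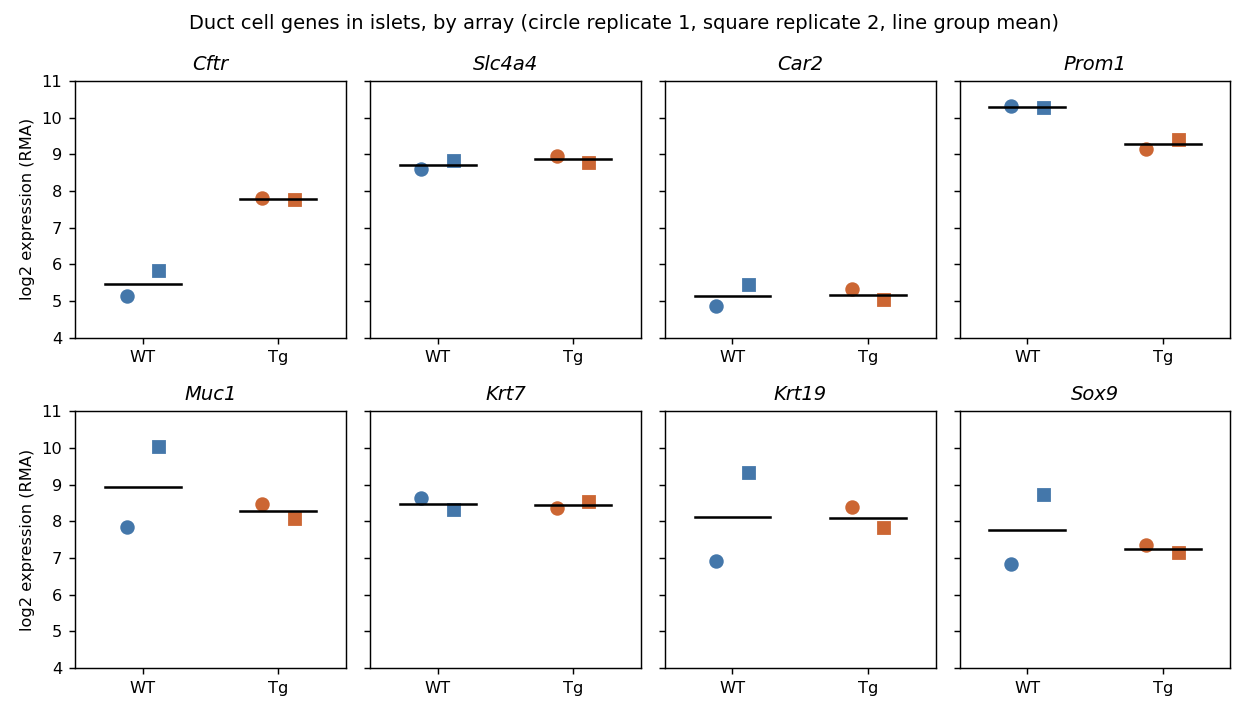
Log2 expression (vertical axis) of each measured duct gene on the WT (blue) and Tg (orange) arrays; circles are replicate 1, squares replicate 2 and lines the group means. Cftr lies between 5.13 and 5.83 in WT and at 7.75 and 7.80 in Tg, Prom1 lies lower in Tg, and the WT arrays stand far apart for Krt19, Muc1 and Sox9.

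Cftr (probeset 17456247) was 5.13 and 5.83 in WT and 7.80 and 7.75 in Tg. Both Tg arrays lay above both WT arrays by more than the gap within either group. The mean went from 5.48 ± 0.49 (SD, n = 2) to 7.77 ± 0.04 (SD, n = 2), a difference of 2.30 (SE 0.23, 95% confidence interval 1.73 to 2.86, limma adjusted p = 0.021), or 4.91-fold. The interval spans 3.32-fold to 7.26-fold. Cftr ranked 29 by size among the 149 genes called higher in Tg, and 0.203% of all genes differed by as much in either direction. On the WT arrays it lay at percentiles 29.0 and 40.6 of the genes of the array, and on the Tg arrays at 64.8 and 64.4. Signal near the dim end of an array is compressed by background, so the fold is less certain than the direction. The difference kept its size, but not its call, without Tg replicate 1 (2.27, adjusted p = 0.137) and without Tg replicate 2 (2.32, adjusted p = 0.110). Without moderation of the variance its p was 0.022 before adjustment and 0.530 after it (ordinary linear model).

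Prom1 (probeset 17447835) was bright in islets of both groups. It was 10.31 and 10.26 in WT and 9.16 and 9.40 in Tg, and the groups did not overlap. The mean went from 10.28 ± 0.04 to 9.28 ± 0.17 (SD, n = 2 each), a difference of -1.0 (SE 0.12, 95% confidence interval -1.31 to -0.70, limma adjusted p = 0.036). WT islets thus had 2.01-fold the Tg level, with an interval of 1.62-fold to 2.48-fold. Prom1 ranked 37 by size among the 50 genes called lower, and it lay above percentile 82 of the genes on each of the 4 arrays. Its call was lost when any 1 array was left out, with differences of -0.88 and -1.12 without Tg replicates 1 and 2 (adjusted p = 0.203 and 0.106) and of -0.98 and -1.03 without WT replicates 1 and 2 (adjusted p = 0.098 and 0.104). Its adjusted p was 0.523 without moderation.

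The start regions of these genes are shown because only these 2 of the 8 duct genes passed the test. Each is the stretch from 250 bases before to 50 bases after a RefSeq gene start on GRCm38.p6, read 5′ to 3′ on the strand of the gene. The set of RefSeq start regions used here covered 6 of the 9 genes and held none for Krt19, Sox9 and Car2. Capitals mark matches, on either strand, to the cAMP response element written as TGACNTCA, the CCAAT box, the GC box GGGCGG and the TATA box TATAAA. The Cftr region is chr6:18170437-18170736 on the plus strand, and Prom1 has a pair of starts on the minus strand, at chr5:44101687-44101986 and chr5:44094719-44095018.
Cftr: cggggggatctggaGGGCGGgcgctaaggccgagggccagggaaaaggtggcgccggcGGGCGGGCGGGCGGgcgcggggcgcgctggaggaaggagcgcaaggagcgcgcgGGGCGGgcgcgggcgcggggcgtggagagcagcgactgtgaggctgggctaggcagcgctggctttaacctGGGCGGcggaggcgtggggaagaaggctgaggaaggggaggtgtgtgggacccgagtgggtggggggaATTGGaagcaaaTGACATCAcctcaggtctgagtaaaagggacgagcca
Prom1, start 1: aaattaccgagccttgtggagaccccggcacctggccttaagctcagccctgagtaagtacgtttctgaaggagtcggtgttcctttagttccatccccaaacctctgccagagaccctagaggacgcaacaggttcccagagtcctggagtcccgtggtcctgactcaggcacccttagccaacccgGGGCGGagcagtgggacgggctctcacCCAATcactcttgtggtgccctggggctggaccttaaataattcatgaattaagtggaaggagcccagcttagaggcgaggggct
Prom1, start 2: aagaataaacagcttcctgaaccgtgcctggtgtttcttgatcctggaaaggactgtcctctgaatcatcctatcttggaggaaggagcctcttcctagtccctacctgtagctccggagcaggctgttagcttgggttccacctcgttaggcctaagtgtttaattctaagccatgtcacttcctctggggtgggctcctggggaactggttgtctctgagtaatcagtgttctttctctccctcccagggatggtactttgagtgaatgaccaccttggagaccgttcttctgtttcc
The Cftr region held 1 match to TGACNTCA, as TGACATCA 13 bases past the start, 1 CCAAT box on the reverse strand beginning 1 base past the start, and 6 GC boxes, of which 3 overlap end to end. Start 1 of Prom1 held 1 CCAAT box and 1 GC box, and start 2 none of the 4 motifs. Krt7, which did not pass the test, also has 1 match to TGACNTCA, as TGAGGTCA 13 bases past its start. Among 32851 RefSeq start regions of 300 bases, 8.83% held TGACNTCA, 37.4% a CCAAT box, 35.7% a GC box and 13.6% a TATA box. A match is only a run of letters, and the array did not measure which start was used.

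The partners of Cftr in bicarbonate secretion did not pass the test. Slc4a4 (probeset 17438832) was 8.59 and 8.82 in WT and 8.97 and 8.76 in Tg. The groups overlapped, and the difference of 0.16 (SE 0.13) had an interval of -0.17 to 0.49 (limma adjusted p = 0.735), which leaves room for a rise of up to 1.41-fold. Car2 (probeset 17396162) was dim, at 4.86 and 5.44 in WT and 5.32 and 5.02 in Tg, between percentiles 23.6 and 34.0 of the genes of an array. Its difference was 0.02 (SE 0.22, interval -0.52 to 0.56), and both Tg arrays lay between the WT arrays. At that level the array may not resolve a change of Car2.

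None of the structural and identity genes Krt7, Krt19, Muc1 and Sox9 passed the test, and the WT arrays differed less for Krt7 than for the other 3. Krt7 (probeset 17315200) was 8.63 and 8.30 in WT and 8.35 and 8.52 in Tg. The gap of 0.32 between the WT arrays was larger than that of 84.5% of all genes. Both Tg arrays lay inside the WT range, and the difference was -0.03 (SE 0.15, interval -0.39 to 0.34). That interval reaches no further than a rise of 1.26-fold or a fall of 1.31-fold.

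Krt19 (probeset 17269368), a widely used duct keratin marker, was 6.91 on WT replicate 1 and 9.31 on WT replicate 2, and 8.38 and 7.82 on the Tg arrays. The gap of 2.40 between the WT arrays was larger than that of 99.9% of all genes. The difference of -0.01 between groups therefore had an SE of 0.73 and an interval of -1.82 to 1.80, in which a rise of 3.48-fold or a fall of 3.54-fold would still lie. Without WT replicate 2 it was 1.19 (adjusted p = 0.180) and without WT replicate 1 it was -1.21 (adjusted p = 0.168).

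Muc1 (probeset 17399374) was 7.86 and 10.02 in WT and 8.48 and 8.06 in Tg. Both Tg arrays lay between the WT arrays, which differed by 2.16. The difference was -0.67 (SE 0.66, interval -2.29 to 0.96, limma adjusted p = 0.780), and it turned to 0.41 without WT replicate 2.

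Sox9 (probeset 17257946) was 6.83 and 8.71 in WT and 7.36 and 7.12 in Tg, again with both Tg arrays inside the WT range. The difference was -0.53 (SE 0.57, interval -1.93 to 0.88, limma adjusted p = 0.803). The difference depended on the WT array used, at -1.47 without WT replicate 1 and 0.41 without WT replicate 2. Each such fit leaves 1 WT array, so the wide gap between the WT arrays no longer enters its spread.

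**Figure D2:**
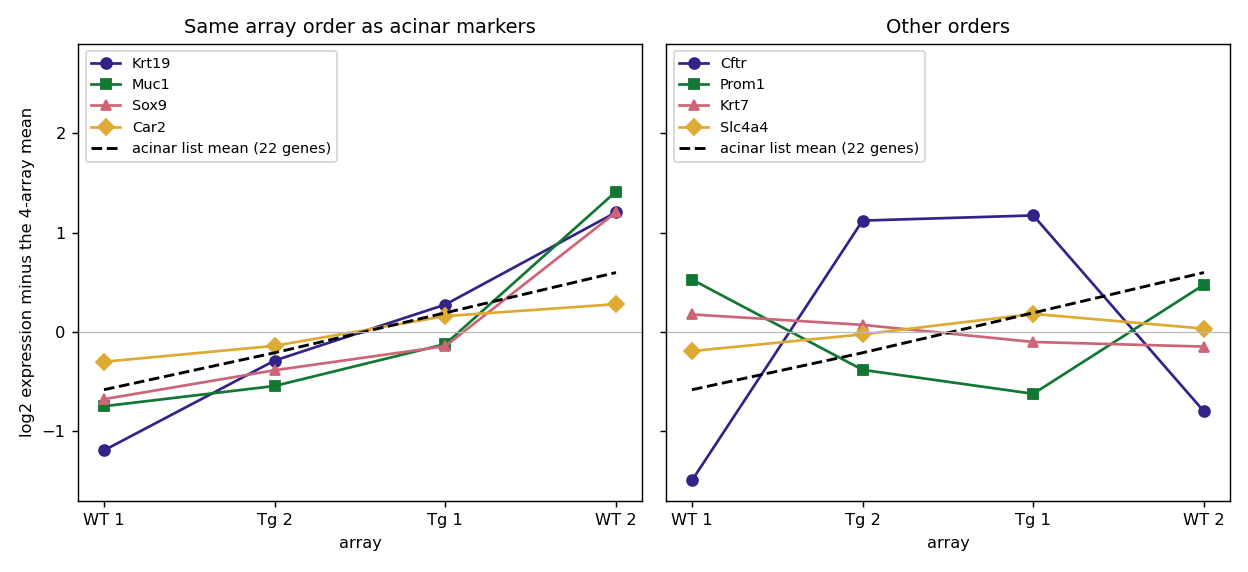
Log2 expression minus the mean of the 4 arrays (vertical axis) on each array (horizontal axis, arranged from the lowest to the highest acinar mean) for 4 duct genes in each panel; the dashed line is the mean of 22 acinar genes. Krt19, Muc1, Sox9 and Car2 rise from WT replicate 1 to WT replicate 2 like the acinar mean. Cftr and Slc4a4 also rise between these WT arrays. Cftr is high and Prom1 low on both Tg arrays.

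Krt19, Muc1, Sox9 and Car2 ordered the 4 arrays alike: WT replicate 1 lowest, then Tg replicate 2, Tg replicate 1 and WT replicate 2. The mean of the acinar genes had this order too, as had 18 of the 22 acinar genes singly. Of all genes, 4.11% had it. In the wider duct list below 12 of 40 genes did, and in the secretion list 3 of 31. The order was taken from the acinar mean, and the genes named next were picked, after the values were seen. Among them, the simple epithelial keratin gene Krt8 was 11.36 and 12.59 in WT and 12.14 and 11.86 in Tg. Its partner Krt18 was 11.10 and 12.26 in WT and 11.90 and 11.63 in Tg. Tff2, a trefoil peptide of mucous epithelia, was 9.26 and 11.94 in WT and 10.61 and 10.04 in Tg. From WT replicate 1 to WT replicate 2 the acinar mean was higher by 1.18, Krt19 by 2.40, Muc1 by 2.16 and Sox9 by 1.88. Single acinar genes varied widely around that mean. Among them, picked likewise, Spink1 was 8.94 and 11.17 in WT, Gp2 10.58 and 12.67, and the very bright Ctrb1 13.56 and 13.89. Prom1 was lower by 0.05 on WT replicate 2 and Krt7 by 0.32. Cftr was 0.70 higher on WT replicate 2, a gap larger than that of 97.9% of all genes, Car2 0.58 higher and Slc4a4 0.23 higher. The part of exocrine tissue in the values of the duct genes, Cftr and Prom1 included, was not tested.

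The wider duct list, also chosen with earlier results known, held 44 further genes of duct identity, of which 40 were measured. Of these, 1 rose, 1 fell and 38 did not pass, which is 5.0% called against 0.897% of all genes, and the median difference was -0.09 against -0.02 over all genes. Cldn1, which encodes a claudin of tight junctions, was 6.29 and 6.31 in WT and 7.88 and 8.30 in Tg. The Tg arrays lay well above the WT arrays (difference 1.79, SE 0.16, limma adjusted p = 0.016). Dcdc2a, which encodes a doublecortin-domain protein of cilia, was 7.82 and 7.85 in WT and 6.83 and 6.70 in Tg (difference -1.07, SE 0.11, limma adjusted p = 0.021). The groups did not overlap for either gene. The call of Cldn1 held without Tg replicate 1, and its adjusted p was 0.0505 without Tg replicate 2 and 0.052 and 0.058 without WT replicates 1 and 2. For Dcdc2a no such fit passed (adjusted p between 0.061 and 0.131).

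Other genes of this list stayed short of the threshold. Ambp, the precursor of alpha-1-microglobulin and bikunin (-0.72, SE 0.13, limma adjusted p = 0.091), Prox1, a homeobox factor (-0.54), and Bicc1, an RNA-binding protein of tubular epithelia (-0.30), had lower means in Tg. Ehf, an epithelial ETS factor (0.55), the receptor gene Notch2 (0.48) and the tetraspanin gene Tspan8 (0.38) had higher ones. Onecut1, a factor of duct development, was between 5.13 and 5.40 on the 4 arrays.

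**Figure D3:**
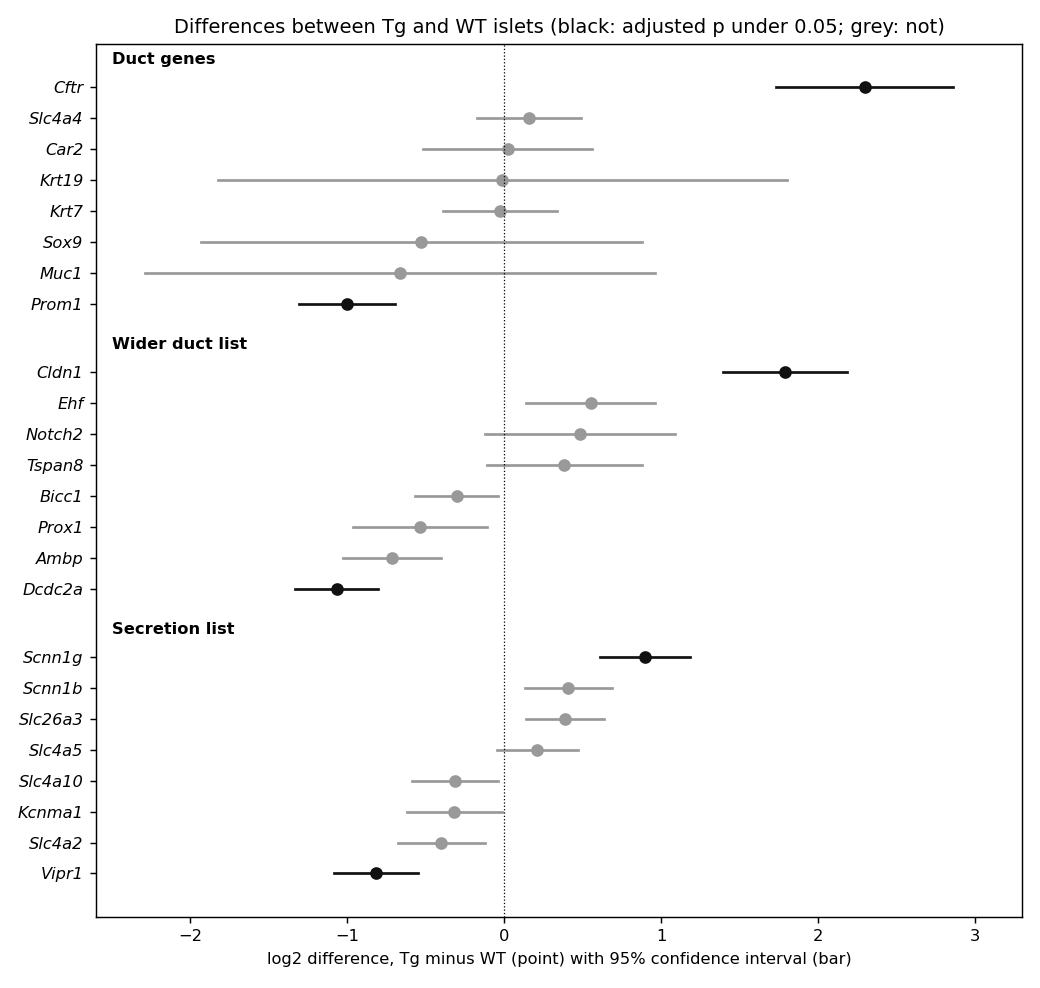
Log2 difference between Tg and WT (horizontal axis; points) with 95% confidence intervals (bars) for the 8 duct genes and for the 8 genes with the smallest p, 4 in each direction, of the wider duct and secretion lists; black marks an adjusted p under 0.05. Cftr, Cldn1 and Scnn1g lie above 0 and Prom1, Dcdc2a and Vipr1 below it, and the bars of Krt19, Sox9 and Muc1 are the widest.

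A list of 36 genes of ductal ion and fluid transport and its receptors had 31 measured members. It too was chosen with earlier results known, and it shares Sctr with the wider duct list. Here again 1 rose, 1 fell and 29 did not pass. That is 6.45% called against 0.897% of all genes, with a median difference of -0.08 against -0.02. Scnn1g, the gamma subunit of the epithelial sodium channel, was 8.16 and 8.0 in WT and 9.03 and 8.92 in Tg (difference 0.90, SE 0.12, limma adjusted p = 0.041). Scnn1b, the beta subunit, was 10.79 and 10.64 in WT and 11.17 and 11.08 in Tg, higher on both Tg arrays but short of the threshold (0.41, SE 0.11, limma adjusted p = 0.246). Scnn1a, the alpha subunit, was 6.97 and 6.95 in WT and 7.01 and 6.90 in Tg, with overlapping groups (-0.007, SE 0.11). Vipr1, a receptor for vasoactive intestinal peptide that raises cAMP, was 8.63 and 8.49 in WT and 7.72 and 7.77 in Tg (difference -0.82, SE 0.11, limma adjusted p = 0.043). Neither call held with any 1 array left out, where adjusted p lay between 0.072 and 0.254 for Scnn1g and between 0.097 and 0.262 for Vipr1.

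Of the anion exchangers and bicarbonate transporters in that list, Slc26a3 was at 0.39 (SE 0.10), Slc4a5 at 0.21, Slc4a2 at -0.40 (SE 0.11) and Slc4a10 at -0.31, all without passing. Slc26a3 and Slc4a5 were dim, with every value under 5. Kcnma1, the large-conductance potassium channel, was at -0.32, and a dimmer second probeset of it was at -0.56 without passing. Sctr, the secretin receptor, was dim at 4.86 and 5.60 in WT and 4.42 and 4.82 in Tg.

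Among relatives of the duct genes in their protein families, 1 gene passed, Car8. None of 10 Abcc genes, the transporter family of Cftr, passed limma's adjusted threshold and 1 had an unadjusted p under 0.05, as had 11.8% of all genes. Their differences lay between -0.24 and 0.40, the highest being that of Abcc9 (SE 0.12), with Abcc1 at 0.29 and Abcc2 at 0.24. Prom2, the other prominin, was 6.71 and 6.95 in WT and 6.54 and 6.75 in Tg (-0.18, SE 0.14). Among 13 carbonic anhydrase genes other than Car2, only Car8 passed. Car8 encodes a relative without catalytic activity, and it was 9.09 and 9.32 in WT and 10.67 and 10.68 in Tg (difference 1.47, SE 0.12, limma adjusted p = 0.014). That call was lost without Tg replicate 1 (adjusted p = 0.102) and without Tg replicate 2 (adjusted p = 0.083). The mitochondrial Car5b (1.59, SE 0.26, limma adjusted p = 0.074) and Car10 (-0.84, SE 0.14, limma adjusted p = 0.076) came next.

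None of 8 further Slc4 genes passed (limma; 3 at an unadjusted p under 0.05), with Slc4a3 at -0.30 beside the values above. Of 8 other mucin genes none passed and 2 had an unadjusted p under 0.05. These were Muc13 (0.89, SE 0.18) and Muc4 (0.49, SE 0.12), both of which span the membrane like Muc1 (limma adjusted p = 0.118 and 0.211). Muc6 was at -0.17. The Sox9 relatives Sox8 and Sox10 were at -0.02 and -0.22. Of 7 other epithelial keratins none passed (0 at an unadjusted p under 0.05), with Krt20 at -0.58 (SE 0.81), Krt14 at -0.08 and Krt17 at -0.04. Krt20 was 5.78 and 8.44 on the WT arrays, a spread like that of Krt19. The relatives of Spp1 in its gene cluster, Ibsp (0.19), Mepe (-0.11) and Dspp (-0.37), were dim and did not pass.

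**Figure D4:**
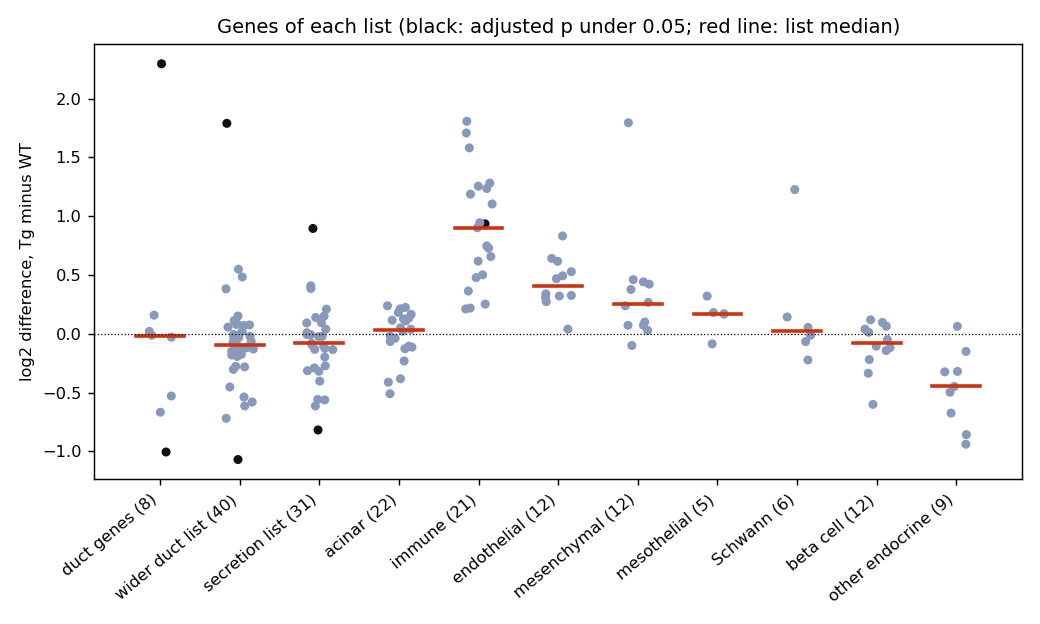
Log2 difference between Tg and WT (vertical axis) for each gene of the duct lists and of the marker lists of other cell types (horizontal axis, with the number of genes measured); red lines are list medians and black points passed an adjusted p under 0.05. The medians of the 3 duct lists and of the acinar and beta cell lists lie within 0.1 of 0, and that of immune markers is 0.90.

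Markers of 8 other cell types of the tissue were read beside these genes, and 1 of their genes passed the test. Over all genes, 0.897% passed, 45.7% had a higher mean in Tg and 11.8% had an unadjusted limma p under 0.05. Immune markers were higher in Tg for 21 of 21 genes (median 0.90), and the 1 that passed was Coro1a, an actin-binding protein of leukocytes (0.94, SE 0.10, limma adjusted p = 0.031). Cd68, a macrophage marker, was at 0.75 without passing. Other macrophage and monocyte markers ran from Itgam (0.21), Adgre1 (0.22) and Cd14 (0.25) to Tyrobp (1.10) and Lyz2 (1.23), also without passing. The groups overlapped for Adgre1 and Cd14. The immune mean was 7.09 and 6.93 in WT and 8.07 and 7.74 in Tg, and the defining marker Ptprc was 6.53 and 6.35 in WT and 8.60 and 7.44 in Tg. Endothelial markers (12 of 12 higher, median 0.40, Cd34 at 0.83 and Cdh5 at 0.62) and mesenchymal markers (11 of 12 higher, median 0.25, Dcn at 1.79 and Pdgfrb at 0.38) had no member past the test, with 8 and 3 at an unadjusted p under 0.05. Among the mesenchymal markers, the collagen genes Col1a1, Col3a1 and Col1a2 were at 0.10, 0.07 and 0.07, each with overlapping groups. Endothelial means ran from 7.92 to 8.10 in WT and from 8.29 to 8.59 in Tg. Mesenchymal means ran from 6.57 to 6.69 in WT and from 6.93 to 7.02 in Tg. The part of these cells in the rise of Cftr was not tested.

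Markers of alpha, delta and PP cells were lower in Tg for 8 of 9 genes (median -0.45). None passed the test and 5 had an unadjusted p under 0.05, with Etv1 at -0.94 and Irx2 at -0.86. The hormone genes differed less between the groups, with Gcg at -0.15, Sst at -0.32 and Ppy, the 1 gene not lower, at 0.06. These hormone genes were very bright on every array, and whether the array resolves a change at that level was not tested. The mean over this list was 10.52 and 10.28 in WT and 9.91 and 9.96 in Tg. The part of these cells in the fall of Prom1 was not tested. Beta cell markers (median -0.08, Ucn3 at -0.60 and Slc30a8 at -0.33) and acinar markers (median 0.03, Bhlha15 at 0.24 and Nr5a2 at -0.41) had no member past the test, with 2 and 0 at an unadjusted p under 0.05. Among the few mesothelial (5) and Schwann cell (6) markers measured, Lrrn4 was at 0.17, Upk3b at 0.18, Ngfr at 1.23 (SE 0.21) and Sox10 at -0.22. None passed, and 1 of them, Ngfr, had an unadjusted p under 0.05.

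Genes with the array pattern most like that of Cftr, by the root mean square distance between values centred on the mean of the 4 arrays, were Adgrg6, an adhesion receptor (distance 0.20), the F-box gene Fbxw15 (0.20), Rph3a, encoding the vesicle protein rabphilin (0.22), Pros1, encoding the anticoagulant protein S (0.23), and Gbp4, a guanylate-binding protein (0.25). Adgrg6 was 5.26 and 6.31 in WT and 8.02 and 7.68 in Tg. Rph3a was 5.95 and 6.04 in WT and 8.39 and 8.29 in Tg. Nearest to Prom1 was Lzts1, a leucine zipper protein (distance 0.02), at 8.40 and 8.39 in WT and 7.27 and 7.55 in Tg. Then came the microRNA gene Mir670 (0.06), the transcriptional regulator Eya1 (0.07), the glutamate receptor subunit Gria3 (0.07) and Kctd16, an auxiliary subunit of the GABA-B receptor (0.08). With 4 arrays such likeness says little beyond a similar difference between the groups, and no gene of the duct lists was in either set.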

How the data were processed

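Islet RNA (250 ng a sample) was labelled and put on Affymetrix arrays, per the labels' protocols. The authors deposited log2 values, to judge by their range (2.87 to 13.9). Partek and RMA, a background correction with quantile normalisation, are named in the submitters' processing notes. No source used here gives a genome build, so probesets were not placed on the genome. RMA compresses differences of dim genes.

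Of 27037 probesets, 23521 name 1 gene, 1814 several and 1702 none. The brightest 1-gene probeset by its mean over the 4 arrays stood for a gene, with no filter on dim genes. Differences, Tg minus WT, were fitted in R 4.3.3 with limma 3.58.1 (lmFit, eBayes) and adjusted over 22180 genes, with 2 residual and 3.76 prior degrees of freedom. An exact two-sided permutation test of 2 against 2 cannot give a p below 0.333, so p-values rest on limma's model. The fit was tested on data simulated from that same model, which cannot show whether the model holds for these 4 arrays. The number of arrays limits the precision.

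The 9 duct genes and all gene lists were chosen with earlier results of these data known. In each duct list the text names every called gene and up to 4 genes in each direction by p, of relatives up to 3 and of other cell types up to 2. Defining markers (hormone genes, Ptprc, Cpa1), the collagen genes, Onecut1, Sctr and genes said to be picked after their values are named besides. So are Scnn1a and the macrophage and monocyte markers Itgam, Adgre1, Cd14, Tyrobp and Lyz2. Start regions and their coordinates are RefSeq's on GRCm38.p6. Alternatives were other uses of probesets, filters, normalisations, variance priors, a replicate block, a 1.5-fold rule with unadjusted p, and each array left out.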

Additional observations from a re-analysis of the deposited data

How the results depend on the processing

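Up to 15 other settings were run per result, all of them planned, and each group had 2 arrays. Cftr (difference 2.30) and Prom1 (-1.0) kept their direction in all 15. The call of Cftr was lost in 4 and that of Prom1 in 6. Without moderation the differences were the same 2.30 and -1.0 (adjusted p = 0.530 and 0.523), and with the replicate number as a block they were also 2.30 and -1.0 (adjusted p = 0.117 and 0.161). Without each array in turn, which takes the single array left in a group to vary as the other group does, Cftr lay between 1.95 and 2.64 and Prom1 between -1.12 and -0.88. The labels do not say that a replicate number marks a shared litter or day, and deviations of same-numbered arrays correlated at -0.063 over genes, so the pairing rests on a number alone. Over all genes, the replicate block called 23 higher and 1 lower against 149 and 50.

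The count of duct genes called, 1 higher and 1 lower, was 0 and 0 without moderation and with the replicate block, each with 2 duct genes at an unadjusted p under 0.05, and 0 to 1 in each direction without each array. The lower gene without WT replicate 1 was Sox9, not Prom1. The wider duct list, with 1 and 1, and the secretion list, with 1 and 1, also gave 0 without moderation and with the replicate block. Without each array the wider list gave 0 to 1 higher and 0 lower, and the secretion list 0 and 0. The 1.5-fold rule called 2 lower genes in the wider list. Counts over all genes ran from 37 to 92 higher and 1 to 43 lower without each array, 521 and 251 with the 1.5-fold rule, 235 and 112 with a variance trend and robust prior, and 0 and 0 without moderation (unadjusted p under 0.05 in 1928 genes; with moderation, in 2627). A variance trend alone called 82 lower.

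Among the 6 duct genes that did not pass, signs turned only where 1 array was left out, and that of Slc4a4 did not turn. Without each array, Krt19 lay between -1.21 and 1.19, Krt7 between -0.19 and 0.13, Sox9 between -1.47 and 0.41, Muc1 between -1.75 and 0.41 and Car2 between -0.27 and 0.31. Leaving out WT replicate 2 turned Krt19, Sox9 and Muc1, and leaving out WT replicate 1 turned Krt7 and Car2. Leaving out a Tg array also turned Krt19, Krt7 and Car2. The cause was not tested. Car2 has no value under the level filter, which leaves it out as dim.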
